A study of Arabidopsis thaliana with 12 samples.

Results

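The transcript levels of *phyB-77 bri1-5* seedlings were compared with those of *bri1-5* seedlings. The difference is called here the effect of the *phyB-77* mutation in plants with an impaired BR receptor. Any other difference between these lines cannot be told apart from it. The comparison took 6 of the 12 ATH1 arrays of the study, 3 of each genotype, and 22746 of 22810 probe sets, leaving out the 64 control probe sets. *phyB-77 bri1-5* (titled *gul2-1 bri1-5* in the labels) carried both mutations, *bri1-5* a weak allele of the BR receptor gene *BRI1*, and *phyB-77* (titled *gul2-1*) an EMS-induced premature stop codon in the phytochrome B gene. *phyB-77* single mutants and the wild type Ws-2, with 3 arrays each, served to place each difference. Their arrays also entered the estimate of the spread behind each SE and p-value. Each mutation was present as a single allele, and RNA came from whole seedlings kept 7 days in continuous red light (a heat map legend of the study gives a younger age).

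BRs are steroid hormones that promote cell elongation. BRI1 is the receptor kinase that perceives them at the cell surface, and its signal releases transcription factors that switch on growth genes and switch off the genes of BR synthesis, so that weak *bri1* alleles give dwarf plants. Phytochrome B (phyB) is the main red light receptor of seedlings. In red light it restrains the PIF proteins, bHLH factors that drive elongation, and *phyB* mutants are therefore tall in red light.

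Levels are given as log2 RMA signals, the normalised brightness of a probe set, which can be compared between genotypes but not between genes. A probe set was called where the limma test of *phyB-77 bri1-5* against *bri1-5* gave an adjusted p under 0.01 over all 22746 probe sets. By this rule 4414 probe sets (19.4%) differed, with 1767 rises (7.77%) and 2647 falls (11.6%) in the double mutant, and these shares are the background for the counts below. Of the called probe sets, 357 were over 2-fold higher (1.57%) and 241 over 2-fold lower (1.06%). The 3 arrays of one genotype lay wholly apart from the 3 of the other for 9485 probe sets (41.7%), 3726 of them upward (16.4%) and 5759 downward (25.3%). The median difference over all probe sets was -0.04 on the log2 scale. Arrays correlated at 0.993 to 0.998 within a genotype and at 0.980 to 0.983 between *phyB-77 bri1-5* and *bri1-5*. The labels call the 3 arrays biological replicates without naming separate cultures. The p-values therefore reflect only how far arrays scattered within the genotypes of the fit, which may be technical.

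**Figure D1:**
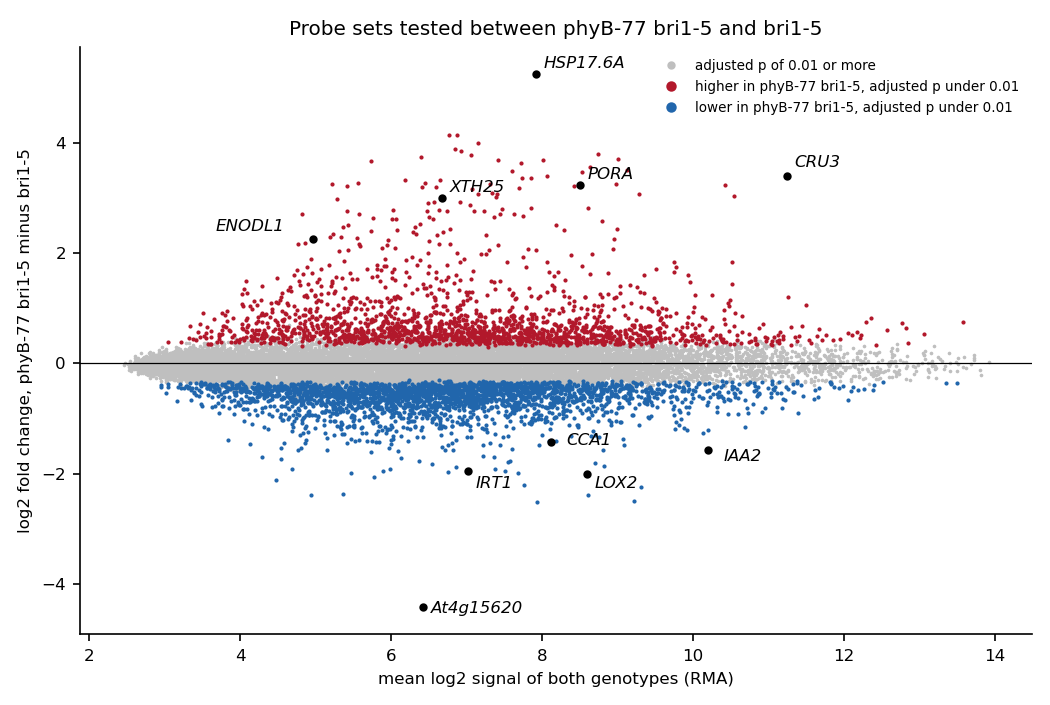
Each point is a probe set, with the mean log2 signal over the *phyB-77 bri1-5* and *bri1-5* arrays on the x axis and the log2 difference, *phyB-77 bri1-5* minus *bri1-5*, on the y axis. Coloured points are the 1767 higher and 2647 lower probe sets called by limma, and the tail of rises reaches 5.26 whereas the tail of falls reaches -4.43.

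A gene was named for 13513 probe sets by the platform annotation and for 1299 more through locus identifiers in tables of the study. A listed gene counts as measured below only where a probe set carried its name. As 7431 probe sets had no name, a gene that was not measured may still be on the array. Those tables were selected on comparisons that include these arrays, and accordingly 29.4% of the probe sets named through them were higher and 31.3% lower, against 7.08% and 10% of those named by the annotation. Most measured genes of a list owed their names to the tables in every list below except expansins (4 of 16), class III peroxidases (5 of 24), photosynthesis genes (10 of 20), plastid-encoded genes (0 of 26), chlorophyll synthesis (1 of 4) and ribosome biogenesis (2 of 7). Apart from these 6, the counts of a list should be read against the larger pair of shares. RMA gives no detection call. *ACS11*, *ARR8*, *At2g40480*, *CIPK20*, *CYP90D1*, *GA20OX3*, *HSFA2*, *PAP1*, *scpl31*, *WER*, *WRKY40* and *YUC9* lay among the 40% of probe sets that were dimmest on average. So did *At4g27654*, *bHLH101*, *CBF1*, *GRF6*, *GRF8* and *IRT2*, which appear under other observations. The sizes of the differences at all these genes are less certain. No probe set could be named as *PHYB* or *BRI1*, so the 2 targeted genes were not checked here. The samples were whole seedlings, in which fewer cells of a type and less RNA per cell cannot be told apart.

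BR synthesis genes were partly lowered by *phyB-77*. Of 12 listed genes 4 had a probe set with their name, each of them through the tables of the study, where 31.3% were lower. Of these 4 genes 3 were lower, none was higher and 1 was not called. *CYP85A2*, the cytochrome P450 that makes brassinolide from castasterone, had 8.41, 8.46 and 8.32 in *phyB-77 bri1-5* and 9.53, 9.09 and 9.20 in *bri1-5*. The genotypes did not overlap, and *CYP85A2* was lower by a log2 difference of -0.88 ± 0.12 (SE, adjusted p = 3.1e-05), yet it was still above Ws-2 by 1.35 (adjusted p = 1.6e-07). *CPD*, a P450 of the same pathway, had 10.77, 10.76 and 10.78 in *phyB-77 bri1-5* against 11.15, 11.43 and 11.32 in *bri1-5*, a fall by 0.53 ± 0.09 (adjusted p = 0.00026). *CYP90D1*, another of these P450s, fell by 0.65 ± 0.12 (adjusted p = 0.00031). *DWF4*, which encodes the C-22 hydroxylase at an early rate-limiting step, had 8.63, 8.71 and 8.74 in *phyB-77 bri1-5* against 8.72, 8.64 and 8.37 in *bri1-5*. Its arrays overlapped and its difference of 0.12 ± 0.11 was not called (adjusted p = 0.47). *DWF4* was above Ws-2 by 1.09 in *phyB-77 bri1-5* (adjusted p = 4.8e-07) and by 0.97 in *bri1-5* (adjusted p = 2.3e-06). Among genes of BR signalling, 3 of 14 listed were measured and 1 was called. This was *BEE2*, a BR-induced bHLH gene, with 8.81, 8.72 and 8.66 in *phyB-77 bri1-5* and 9.81, 10.18 and 9.56 in *bri1-5*, a fall by 1.12 ± 0.13 (adjusted p = 2.4e-06).

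Genes for bHLH proteins that act on elongation changed in both directions. Of 12 listed genes 6 were measured, of which 3 were higher, 2 lower and 1 (*PAR1*, difference 0.07) not called. The 3 that rose encode proteins known to restrain growth. *HFR1*, an atypical bHLH that binds PIFs and blocks them, had 8.94, 9.12 and 9.15 in *phyB-77 bri1-5* against 7.54, 7.35 and 7.77 in *bri1-5*, a 2.87-fold rise (log2 1.52 ± 0.11, adjusted p = 7.4e-09). *IBH1*, an inhibitor of growth-promoting bHLH factors, had 7.22, 7.25 and 7.08 in *phyB-77 bri1-5* against 6.08, 5.69 and 6.21 in *bri1-5*, a rise of 1.19 ± 0.14 (adjusted p = 2.8e-06). *AIF1*, a further growth repressor of this family, rose by 0.66 ± 0.09 (adjusted p = 1.8e-05). The 2 that fell encode growth promoters. *HBI1*, which activates cell elongation genes, had 6.23, 6.27 and 6.21 in *phyB-77 bri1-5* against 7.56, 6.95 and 7.21 in *bri1-5* (log2 -1.01 ± 0.12, adjusted p = 5.9e-06). *PRE3*, a small HLH protein that titrates the inhibitors, had 6.69, 6.66 and 6.69 in *phyB-77 bri1-5* against 7.56, 7.16 and 7.58 in *bri1-5* (log2 -0.75 ± 0.11, adjusted p = 3.5e-05). *HBI1* in *phyB-77 bri1-5* differed from Ws-2 by -0.17 (95% interval -0.43 to 0.09) and *PRE3* by 0.00 (-0.23 to 0.23), neither of them called.

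Of 24 listed light signalling genes 8 were measured, 3 lower (37.5%), none higher and 5 not called, with a median of 0.08. As 6 of the 8 were named through the tables, 31.3% is the share to compare, and the share of falls lay near it. *PIF5*, a PIF that phyB removes in red light, had 8.18, 8.09 and 8.01 in *phyB-77 bri1-5* against 9.21, 9.65 and 9.40 in *bri1-5*, a 2.51-fold lower signal (log2 -1.33 ± 0.12, adjusted p = 7.8e-08). *PIF1*, known for repressing germination and greening in the dark, fell by 0.58 ± 0.11 (adjusted p = 0.00065), and *HYH*, a bZIP factor of photomorphogenesis, by 0.56 ± 0.12 (adjusted p = 0.0019). The call of *HYH* was lost without array 3 of *phyB-77 bri1-5* (adjusted p = 0.014) or array 1 of *bri1-5* (adjusted p = 0.012). *HY5*, the main bZIP factor of that response, differed by 0.27 and was not called (adjusted p = 0.049), and *PIF3* differed by 0.14 (adjusted p = 0.47).

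Shade avoidance genes, which rise in wild-type plants when phyB is inactivated, included both rises and falls. Of 17 listed genes 12 were measured, 4 higher (33.3%), 5 lower (41.7%) and 3 not called, and 9 of the 12 were named through the tables, for which 29.4% and 31.3% are the shares to compare. The list had a median difference of -0.10, beside -0.04 over all probe sets. Those that were higher were *HFR1*, *CKX5*, *XTH22* and *XTH15*. *CKX5*, a cytokinin-degrading oxidase, had 7.72, 7.66 and 7.64 in *phyB-77 bri1-5* against 6.00, 5.96 and 6.51 in *bri1-5* (log2 1.51 ± 0.12, adjusted p = 2.7e-08). *XTH22* rose by 0.78 (adjusted p = 1.8e-05) and *XTH15* by 0.64 (adjusted p = 1.1e-05). Those that were lower were the homeobox genes *HAT1*, *HAT2* and *ATHB4*, the auxin gene *IAA29* and *YUC9*. *HAT2* had 7.48, 7.51 and 7.47 in *phyB-77 bri1-5* against 8.89, 8.93 and 8.86 in *bri1-5* (log2 -1.40 ± 0.11, adjusted p = 1.3e-08). *YUC9*, a flavin monooxygenase of auxin synthesis, had 3.58, 3.92 and 3.83 in *phyB-77 bri1-5* against 5.23, 5.04 and 5.65 in *bri1-5* (log2 -1.53 ± 0.13, adjusted p = 3.9e-08). *ATHB2*, the best known homeobox gene of the response, differed by -0.26 and was not called (adjusted p = 0.051).

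Auxin-responsive genes were lower in *phyB-77 bri1-5*. Of 33 listed genes 13 were measured, 10 of them lower (76.9%), none higher and 3 not called, and their median was -1.02. *IAA2*, an auxin-induced repressor of auxin response, had 9.36, 9.44 and 9.47 in *phyB-77 bri1-5* against 10.92, 11.18 and 10.87 in *bri1-5*. All 3 *phyB-77 bri1-5* arrays lay below the lowest *bri1-5* array, and the signal was 2.96-fold lower (log2 -1.57 ± 0.09, adjusted p = 4.6e-10). *GH3.6*, which conjugates auxin to amino acids, had 9.24, 9.25 and 9.25 in *phyB-77 bri1-5* against 10.39, 10.35 and 10.18 in *bri1-5* (log2 -1.06 ± 0.09, adjusted p = 3.4e-08). *IAA1* fell by 1.18, *IAA4* by 1.02, and *PIN3*, an auxin efflux carrier, by 0.80. The *IAA2* and *GH3.6* levels of *phyB-77 bri1-5* differed from Ws-2 by -0.09 (95% interval -0.29 to 0.11) and -0.07 (-0.25 to 0.12), neither of them called, whereas *bri1-5* was above Ws-2 by 1.48 and 0.99. The *SAUR* genes had another pattern. *SAUR16*, a small auxin up-regulated RNA, had 5.45, 5.58 and 5.43 in *phyB-77 bri1-5* against 7.30, 7.16 and 7.31 in *bri1-5* (log2 -1.77 ± 0.10, adjusted p = 8.2e-11), and *bri1-5* itself was below Ws-2 by a difference of -1.02. *SAUR14* fell by 1.22 (adjusted p = 6e-09), with *bri1-5* below Ws-2 by a difference of -0.61. *IAA17* differed by 0.42 (adjusted p = 0.037), *GH3.3* by -0.19 and *SAUR9* by -0.30, none of them called.

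**Figure D2:**
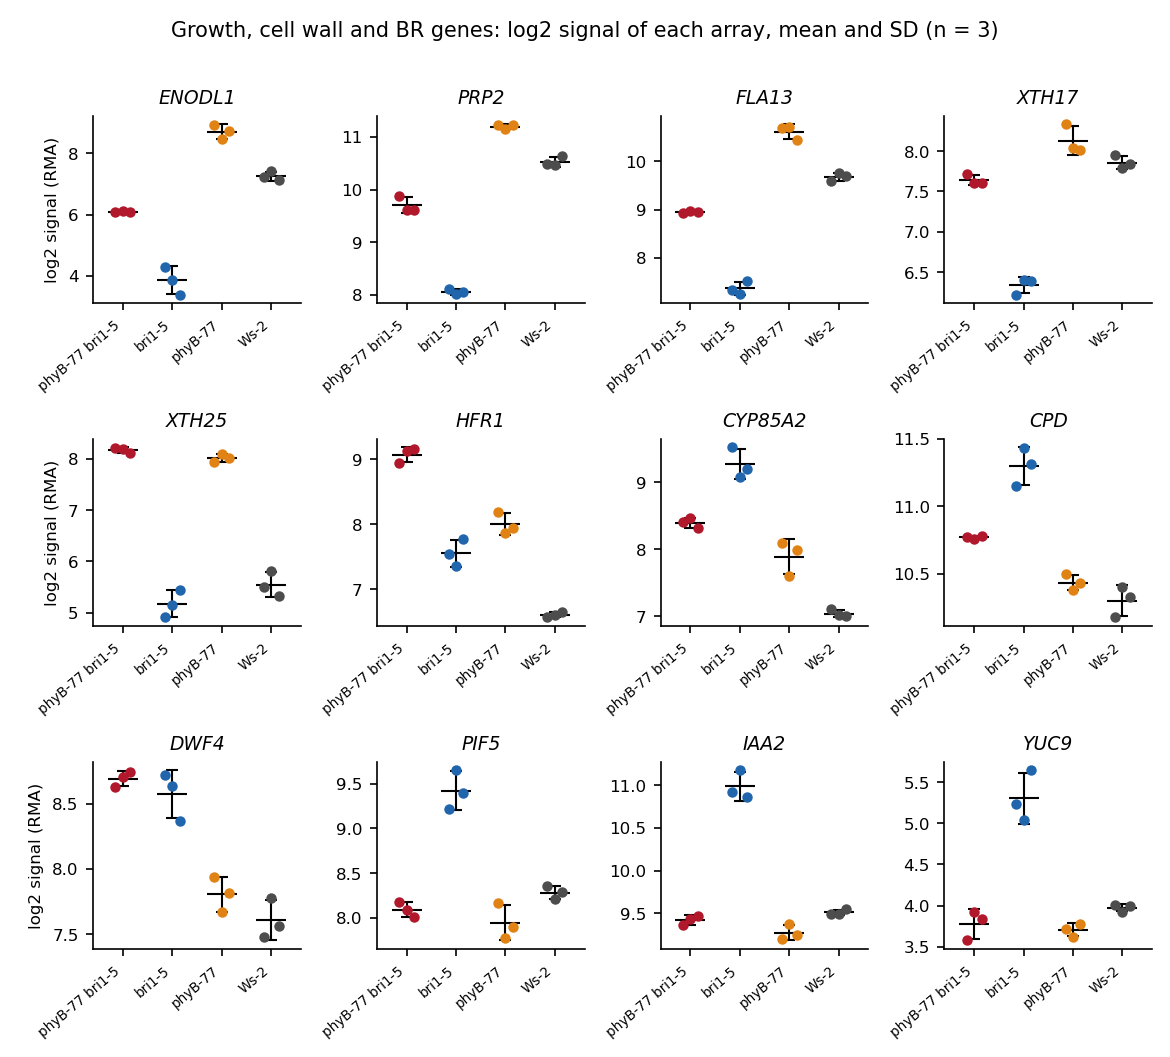
Each panel shows the log2 RMA signal of a cell wall, BR, light or auxin gene in the 3 arrays of each genotype, in the order *phyB-77 bri1-5*, *bri1-5*, *phyB-77* and Ws-2, with a bar for the mean and whiskers for the SD (n = 3). *ENODL1*, *PRP2*, *FLA13* and *XTH17* have their lowest signal in *bri1-5*, *IAA2*, *PIF5* and *YUC9* their highest there, and *DWF4* overlaps between *phyB-77 bri1-5* and *bri1-5*.

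Cell wall genes outside the large enzyme families were mostly higher in *phyB-77 bri1-5*. Of 19 listed genes 9 were measured, 6 higher (66.7%), 2 lower and 1 (*COB*, difference -0.22) not called, with a median of 0.64. *ENODL1*, an early nodulin-like plasma membrane protein, had 6.07, 6.13 and 6.09 in *phyB-77 bri1-5* against 4.29, 3.87 and 3.38 in *bri1-5*. It was 4.76-fold higher (log2 2.25 ± 0.17, adjusted p = 7.4e-09) although the *bri1-5* arrays spread over nearly a whole log2 unit. *PRP2*, a proline-rich wall protein, had 9.87, 9.62 and 9.61 in *phyB-77 bri1-5* against 8.12, 8.01 and 8.05 in *bri1-5*, a 3.11-fold rise (adjusted p = 1.8e-10). *FLA13*, a fasciclin-like arabinogalactan protein, had 8.94, 8.97 and 8.96 in *phyB-77 bri1-5* against 7.34, 7.26 and 7.52 in *bri1-5*, a 2.99-fold rise (adjusted p = 6.6e-10). These 3 genes remained below Ws-2 in *phyB-77 bri1-5*, by differences of -1.16, -0.83 and -0.73. *CESA4* and *CESA7*, cellulose synthases of the secondary wall, rose by 0.73 and 0.64, and *FLA9* by 0.50. *CESA4* in *phyB-77 bri1-5* differed from Ws-2 by -0.11 (95% interval -0.28 to 0.07), which was not called. The 2 that fell were *PRP1* (log2 -0.98 ± 0.10, adjusted p = 8.1e-07) and *PRP3* (log2 -0.68 ± 0.10, adjusted p = 7.2e-05), proline-rich proteins known from root hairs.

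The xyloglucan endotransglucosylase/hydrolase (XTH) family, whose enzymes cut and rejoin wall xyloglucan, was measured at 23 of 27 genes, with 9 higher (39.1%), 5 lower (21.7%) and 9 not called. Of the 23 genes 14 were named through the tables, where 29.4% were higher and 31.3% lower. *XTH25* stood out among those that rose, with 8.22, 8.19 and 8.11 in *phyB-77 bri1-5* against 4.92, 5.14 and 5.45 in *bri1-5*, an 8.03-fold difference (log2 3.01 ± 0.13, adjusted p = 2.6e-12). *XTH17* had 7.71, 7.60 and 7.60 in *phyB-77 bri1-5* against 6.22, 6.40 and 6.39 in *bri1-5* (2.47-fold, adjusted p = 1.4e-08). The pair differed in where *bri1-5* stood. The difference of *bri1-5* from Ws-2 was -1.52 at *XTH17* (adjusted p = 2.9e-09) and -0.38 at *XTH25*, which was not called (adjusted p = 0.034). Among those that fell, *XTH6* had 8.11, 7.95 and 8.03 in *phyB-77 bri1-5* against 9.62, 9.58 and 9.60 in *bri1-5* (log2 -1.57 ± 0.09, adjusted p = 4.1e-10). *XTH12*, *XTH13* and *XTH14*, closely related genes whose probe sets may share signal, fell by 0.80, 0.83 and 0.98, and *XTH26* by 0.51. *XTH12* had 7.33, 7.31 and 7.20 in *phyB-77 bri1-5* against 8.22, 8.08 and 7.94 in *bri1-5* (adjusted p = 4.4e-05).

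Expansins, proteins that loosen the wall, were measured at 16 of 22 genes, with 4 higher, 3 lower and 9 not called. *EXPA2* had 7.32, 7.34 and 7.25 in *phyB-77 bri1-5* against 5.59, 6.25 and 6.03 in *bri1-5* (log2 1.35 ± 0.12, adjusted p = 1.5e-07), and *EXPA3* rose by 0.98 ± 0.10 (adjusted p = 3.3e-07). *EXLB1* rose by 0.61 and *EXPA8* by 0.46. *EXPA7* and *EXPA18*, expansins of root hairs, fell by 0.80 and 0.66, and *EXPA15* by 0.51. *EXPA1* and *EXPA5* differed by -0.02 and 0.23 and were not called. Aquaporins were measured at 5 of 21 genes, with 3 higher and 1 lower. *PIP2;4*, a plasma membrane water channel, had 9.39, 9.44 and 9.38 in *phyB-77 bri1-5* against 8.21, 8.08 and 8.28 in *bri1-5* (log2 1.21 ± 0.10, adjusted p = 4.7e-08), and *TIP4;1*, a tonoplast channel, fell by 0.53 (adjusted p = 7e-05). The other 2 that rose, *TIP3;1* and *TIP3;2*, are seed-specific and appear below.

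Among gibberellin genes 11 of 25 were measured, 4 higher (36.4%), none lower and 7 not called. The share of rises lay near the 29.4% of probe sets named through the tables, from which 7 of the 11 had their names. *GA20OX3*, an oxidase of gibberellin synthesis, had 5.02, 4.84 and 4.69 in *phyB-77 bri1-5* against 3.61, 3.78 and 3.72 in *bri1-5* (log2 1.15 ± 0.11, adjusted p = 2.8e-07). *RGL1*, a DELLA repressor of gibberellin response, rose by 0.80 ± 0.09 (adjusted p = 2.8e-06), *GASA4*, a gibberellin-responsive peptide gene, by 0.53 and *GA2OX2*, a gibberellin-inactivating oxidase, by 0.50. *GA3OX1* differed by -0.16 and was not called (adjusted p = 0.36). Of 15 ethylene genes 5 were measured, 2 higher and 2 lower. *HLS1*, needed for the apical hook, had 7.17, 7.02 and 6.91 in *phyB-77 bri1-5* against 5.50, 5.65 and 5.22 in *bri1-5* (log2 1.58 ± 0.11, adjusted p = 3.9e-09). The ACC synthases, which make the ethylene precursor, changed in both directions. *ACS8* fell by 1.52 ± 0.11 (adjusted p = 4.4e-09) and *ACS11* by 1.45 ± 0.12 (adjusted p = 3.7e-08), whereas *ACS6* rose by 0.95 (adjusted p = 6.2e-08). Of 13 cytokinin genes 5 were measured, 1 higher (*CKX5*) and 2 lower. *ARR8*, a type-A response regulator that dampens cytokinin signalling, had 3.75, 3.79 and 3.66 in *phyB-77 bri1-5* against 5.37, 5.35 and 6.21 in *bri1-5* (log2 -1.91 ± 0.16, adjusted p = 4.1e-08), and *ARR9*, of the same type, fell by 1.08.

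Clock genes were lower in *phyB-77 bri1-5*, 7 of 9 measured of 18 listed (77.8%), with a median of -0.71. *CCA1*, a morning MYB factor of the core oscillator, had 7.38, 7.43 and 7.40 in *phyB-77 bri1-5* against 8.58, 8.95 and 8.97 in *bri1-5* (log2 -1.43 ± 0.10, adjusted p = 4.3e-09). *LHY*, its close relative, had 8.50, 8.48 and 8.38 in *phyB-77 bri1-5* against 9.57, 9.48 and 9.47 in *bri1-5* (log2 -1.05 ± 0.10, adjusted p = 2.1e-07). *COL2* fell by 0.97, *LNK2* by 0.72, *RVE1* by 0.71, *ELF3* by 0.53 and *COL1* by 0.48. *GI* and *FKF1*, which are known to peak later in the day, differed by 0.12 and 0.32 and were not called. No hour of harvest entered the comparison, and a shift of the daily rhythm was not tested. Relative to Ws-2 the list had a median of 0.05 in *phyB-77 bri1-5* and of 0.76 in *bri1-5*.

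Ribosome biogenesis genes gave 4 lower of 7 measured (57.1%), none higher, of 12 listed. *At4g25730*, for a putative rRNA methyltransferase, had 5.16, 5.11 and 5.01 in *phyB-77 bri1-5* against 6.32, 6.41 and 6.80 in *bri1-5* (log2 -1.42 ± 0.12, adjusted p = 5e-08). *NOP56*, *At3g05060* and *NAP57*, for nucleolar proteins of the complexes that modify rRNA, fell by 0.94, 0.95 and 0.70. *NAP57* was still above Ws-2 by 1.56 in *phyB-77 bri1-5* (adjusted p = 2.4e-10). Of the 2 cell division genes measured, *CYCD2;1*, a D-type cyclin, fell by 0.77 (adjusted p = 0.00046) and *CDKB2;1* differed by 0.07 (adjusted p = 0.65).

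The root markers that were lower in *phyB-77 bri1-5* were genes of the root epidermis and its hairs. Of 17 listed root markers 9 were measured, 7 lower (77.8%), none higher and 2 not called, with a median of -0.66. *RHD2*, the NADPH oxidase of growing root hairs, had 5.40, 5.19 and 5.30 in *phyB-77 bri1-5* against 6.47, 6.49 and 6.73 in *bri1-5* (log2 -1.27 ± 0.10, adjusted p = 1.5e-08). *IRT1*, the iron transporter of the root epidermis, had 5.80, 6.24 and 6.10 in *phyB-77 bri1-5* against 8.13, 8.19 and 7.68 in *bri1-5*, a 3.88-fold lower signal (adjusted p = 3.4e-09). *COBL9*, *EXPA7*, *EXPA18* and *PRP3*, which are known from root hairs, and *WER*, which specifies hairless cells, fell by 0.61 to 0.80. *CASP1*, of the endodermis, and *PYK10*, an abundant root glucosidase, differed by 0.25 and -0.14 and were not called. The summed signal of the 9 markers was 8732 to 9556 in *phyB-77 bri1-5* and 10112 to 10545 in *bri1-5*, and 8961 to 10681 in *phyB-77* and 9615 to 10597 in Ws-2. Such sums, here and below, were made on the linear scale. They weigh bright probe sets most and need not follow the median of a list. The share of root tissue was not measured, and its part in the falls was not tested.

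Class III peroxidases, secreted enzymes that act on the wall, were measured at 24 of 28 genes, with 6 higher (25%), 6 lower (25%) and 12 not called. *PRX73* had 8.29, 8.43 and 8.33 in *phyB-77 bri1-5* against 9.83, 9.92 and 9.71 in *bri1-5* (log2 -1.47 ± 0.09, adjusted p = 2.6e-10). *PRX2*, whose probe set can also detect related transcripts, had 8.26, 8.07 and 7.90 in *phyB-77 bri1-5* against 8.98, 9.15 and 8.83 in *bri1-5* (log2 -0.91 ± 0.13, adjusted p = 4.8e-05). Among those higher, *At4g11290* rose by 0.98 and *At3g21770* by 0.60.

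Seed and heat shock genes led the rises. Of 31 seed genes 29 were measured, 27 higher (93.1%), none lower and 2 not called (*SESA4*, 0.33, and *ABI3*, 0.42), with a median of 3.22, and all 9 named by the annotation were among the 27. *CRU3*, a 12S globulin of the seed store, had 12.95, 13.00 and 12.90 in *phyB-77 bri1-5* against 9.59, 9.48 and 9.56 in *bri1-5*, a 10.6-fold difference (log2 3.41 ± 0.08, adjusted p = 5e-15). *SESA2*, a 2S albumin, had 8.86, 8.84 and 8.85 in *phyB-77 bri1-5* against 4.71, 5.00 and 5.28 in *bri1-5*, a 14.5-fold difference (adjusted p = 2.2e-14). The tonoplast channels *TIP3;1* and *TIP3;2* were 13.1-fold and 13.7-fold higher, the oil body gene *HSD1* 13-fold, the seed defensin *PDF1.1* 13.9-fold and the embryo protein gene *ATECP31* 13.4-fold. The gibberellin-responsive peptide genes *GASA2* and *GASA3* were 12.8-fold and 14.8-fold higher. *At5g45690* (log2 4.14), *At3g56350* (3.99), *At1g05510* (3.69), *At3g05260* (3.63) and *At1g54870* (3.56) completed the 15 largest rises beside the small heat shock genes described next. The summed signal of the 29 genes was 33913 to 34737 in *phyB-77 bri1-5* against 3666 to 3947 in *bri1-5*, and 41455 to 43027 in *phyB-77* against 3651 to 3850 in Ws-2. The share of seed tissue or of ungerminated seeds was not measured, and its part in this result was not tested.

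Of 15 heat shock genes 12 were measured, 11 higher (91.7%), none lower and 1 (*HSP70*, difference 0.28) not called, with a median of 1.79. *HSP17.6A*, a small heat shock protein also made in maturing seeds, had the largest rise of all named genes, with 10.45, 10.53 and 10.67 in *phyB-77 bri1-5* against 5.20, 5.25 and 5.44 in *bri1-5*, a 38.2-fold difference (log2 5.26 ± 0.09, adjusted p = 4.2e-17). *HSP17.4*, a further small heat shock protein, rose by 4.15 on the log2 scale (adjusted p = 1.8e-14). *HSFA2*, a heat-inducible transcription factor, had 5.96, 5.75 and 5.84 in *phyB-77 bri1-5* against 3.61, 3.71 and 3.71 in *bri1-5*, a log2 difference of 2.17 between dim signals (adjusted p = 4.3e-11). The chaperone genes *HSP70B* and *HSP101* rose by 1.49 and 1.25.

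**Figure D3:**
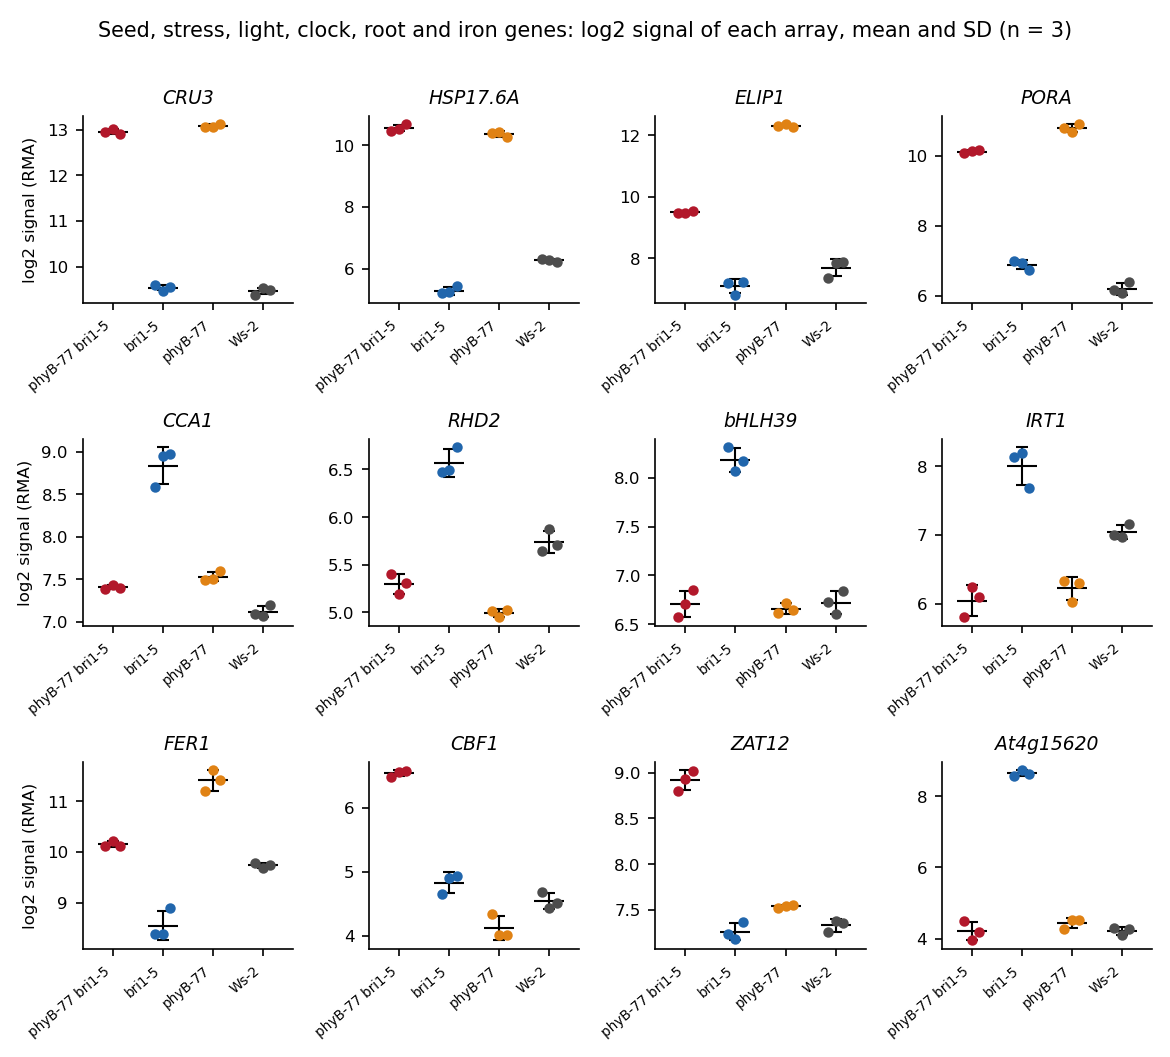
Each panel shows the log2 RMA signal of a seed, heat shock, light, clock, root, iron or stress gene in the 3 arrays of each genotype, in the order *phyB-77 bri1-5*, *bri1-5*, *phyB-77* and Ws-2, with a bar for the mean and whiskers for the SD (n = 3). *CRU3* and *HSP17.6A* are high in both genotypes with *phyB-77*, *CBF1* and *ZAT12* are highest in *phyB-77 bri1-5*, and *CCA1*, *bHLH39* and *At4g15620* are highest in *bri1-5*.

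Photosynthesis genes of the nucleus were mostly not called. Of 41 listed 20 were measured, 1 higher (5%, beside 7.77% overall), 2 lower (10%, beside 11.6%) and 17 not called. The median was -0.05. All genes called had their names from the annotation. The 10 genes named through the tables were not called, although 29.4% of the probe sets so named were higher and 31.3% lower. *LHCB4.3*, an antenna protein, rose by 0.98 ± 0.14 (adjusted p = 3.5e-05), whereas *PRK* and *SBPASE*, enzymes of the Calvin cycle, fell by 0.51 and 0.45. Their summed signal was 158963 to 160932 in *phyB-77 bri1-5* and 165807 to 173209 in *bri1-5*, and 115654 to 118439 in *phyB-77* and 169013 to 173146 in Ws-2. Plastid-encoded genes gave 8 lower (30.8%, beside 10% of the probe sets named by the annotation) and none higher of 26, with a median of -0.13. Those lower included *atpF*, *psbB* and *accD*, which fell by 0.62, 0.59 and 0.58, and *rbcL* differed by -0.22 and was not called. Without array 1 or 2 of *phyB-77 bri1-5* the lower genes numbered 5 and 4, and without array 1 or 2 of *bri1-5* 5 each. Of 4 chlorophyll synthesis genes measured, 2 were higher. *PORA*, the protochlorophyllide reductase of dark-grown tissue, had 10.08, 10.14 and 10.16 in *phyB-77 bri1-5* against 6.99, 6.94 and 6.73 in *bri1-5*, a 9.44-fold difference (adjusted p = 4e-14). *PORB*, the form that persists in light, rose by 0.83 (adjusted p = 6.3e-07), and *CHLM*, a methyltransferase of the pathway, fell by 0.44. Both early light-induced genes measured were higher. *ELIP1* had 9.48, 9.47 and 9.55 in *phyB-77 bri1-5* against 7.20, 6.81 and 7.22 in *bri1-5*, a 5.35-fold difference (adjusted p = 5.6e-11), and *ELIP2* rose by 2.05 (adjusted p = 1.3e-10).

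Flavonoid genes moved in both directions, 3 higher, 7 lower (46.7%) and 5 not called of 15 measured of 27 listed. *F3H*, an early enzyme of the pathway, had 8.04, 8.03 and 7.88 in *phyB-77 bri1-5* against 8.66, 8.72 and 8.85 in *bri1-5* (log2 -0.76 ± 0.10, adjusted p = 8.7e-06). *DFR* and *TT19*, of the anthocyanin branch and its transport, fell by 0.81 and 0.67. *PAP1*, a MYB activator of anthocyanin genes, had 4.31, 4.44 and 4.50 in *phyB-77 bri1-5* against 3.93, 3.66 and 3.69 in *bri1-5*, a rise of 0.65 ± 0.12 (adjusted p = 0.00034). *MYB111*, an activator of flavonol genes, rose by 0.66 and *CHS*, the entry enzyme, by 0.46.

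Glucosinolate genes were lower wherever they were called. Of 22 glucosinolate genes 6 were measured, 4 lower (66.7%) and none higher. *MAM3* and *BCAT4*, enzymes of methionine chain elongation, were 3.98-fold and 3.27-fold lower. *MAM3* had 4.26, 4.56 and 4.61 in *phyB-77 bri1-5* against 6.69, 6.09 and 6.63 in *bri1-5* (adjusted p = 4.1e-09). *ESM1*, which steers glucosinolate breakdown, fell by 1.40 ± 0.12 (adjusted p = 7.9e-08) and *MYB28*, the activator of the aliphatic branch, by 0.52. Of 22 jasmonate genes 6 were measured and 1 was called. This was *LOX2*, a chloroplast lipoxygenase at the entry of jasmonate synthesis, with 7.64, 7.62 and 7.51 in *phyB-77 bri1-5* against 9.56, 9.75 and 9.51 in *bri1-5*, a 4.03-fold lower signal (adjusted p = 2e-11). *AOS*, the next enzyme, differed by -0.16 and was not called (adjusted p = 0.26). Of 16 salicylic acid and defence genes 6 were measured, 3 higher (*WRKY70* by 0.99, the chitinase gene *HCHIB* by 0.96 and *WRKY40* by 0.60) and none lower. Of 14 abscisic acid genes 8 were measured, with *RD29B* higher by 0.58 and *COR15A*, *ERD10* and *COR47* lower, by differences of -0.76, -0.63 and -0.46. *COR47* was not called with arrays centred on their medians, with the 6 arrays alone or when any 1 of these 6 arrays, other than array 3 of *bri1-5*, was left out.

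**Figure D4:**
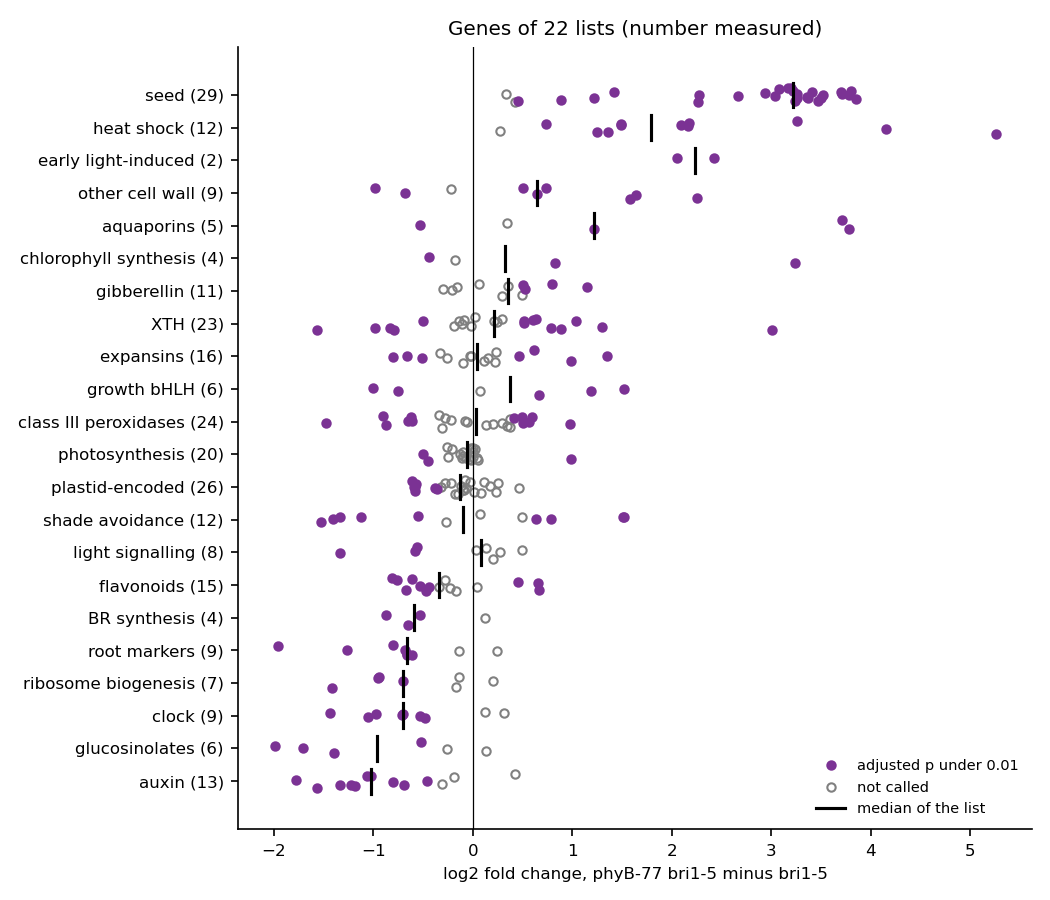
Each point is a gene of the list named at the left, placed by its log2 difference, *phyB-77 bri1-5* minus *bri1-5*. Filled points were called by limma, open points were not, and bars mark medians. Seed and heat shock genes lie to the right, with medians of 3.22 and 1.79, and auxin, clock and root genes to the left, with medians of -1.02, -0.71 and -0.66.

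The largest falls were at genes of mixed function. *At4g15620*, for a CASP-like membrane protein, had 4.49, 3.97 and 4.18 in *phyB-77 bri1-5* against 8.57, 8.73 and 8.62 in *bri1-5*, a 21.5-fold lower signal (log2 -4.43 ± 0.12, adjusted p = 9.9e-15). It had 4.44 ± 0.15 in *phyB-77* and 4.23 ± 0.11 in Ws-2 (SD, n = 3), so that *bri1-5* alone of the 4 genotypes had a high signal. *At1g47400*, annotated as a hypothetical protein, had 6.65, 6.62 and 6.74 in *phyB-77 bri1-5* against 9.18, 9.26 and 9.14 in *bri1-5*, a 5.73-fold lower signal (adjusted p = 2.1e-13). *At5g12050*, a putative serine-rich protein, was 5.66-fold lower and *At2g40480* 5.23-fold. *MAC3B*, a component of a spliceosome-associated complex, had 7.40, 7.51 and 7.35 in *phyB-77 bri1-5* against 9.81, 9.74 and 9.87 in *bri1-5*, also 5.23-fold lower. *MAC3B* in *bri1-5* differed from Ws-2 by 0.22, which was not called (adjusted p = 0.11), and *phyB-77* was below Ws-2 by a difference of -1.57 (adjusted p = 8.2e-10). *CIPK20*, a calcium-regulated kinase, was 5.14-fold lower, *scpl31*, a carboxypeptidase-like protein, 4.34-fold, *KT2/3*, a potassium channel, 3.86-fold and *At1g06830*, a putative glutaredoxin, 3.91-fold. The remaining falls were at *ORG1* (4.71-fold) and *FRO6*, a ferric reductase whose probe set can detect a related gene (3.77-fold), beside *IRT1*, *LOX2*, *MAM3* and *ARR8* above.

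The effect of *phyB-77* with the *bri1-5* mutation was then set beside its effect without it, *phyB-77* minus Ws-2, a pair of comparisons that share no array. Their difference, the interaction term of the fit, passed the threshold for 3128 probe sets (13.8%), and *phyB-77* against Ws-2 alone for 3487 (15.3%). The interaction test was passed by 54.1% of the probe sets named through the tables and by 12.5% of those named by the annotation. Seed genes had medians of 3.22 with and 3.38 without *bri1-5*, and heat shock genes 1.79 and 1.91. Auxin genes had medians of -1.02 with and -0.23 without, clock genes -0.71 and -0.04, and ribosome biogenesis genes -0.70 and 0.41. Of the 13 auxin genes 6 passed the interaction test, of the 9 clock genes 6, of the 7 ribosome biogenesis genes 4 and of the 29 seed genes 9 (31%). The auxin share of 46.2% and the seed share lay below that of the probe sets named through the tables, from which most genes of both lists had their names. The clock share was 66.7%, with 8 of the 9 genes named through the tables, and the ribosome biogenesis share 57.1%, with 2 of the 7. Of the 12 heat shock genes, 9 of them named through the tables, 7 passed (58.3%). These 7 had positive and negative interactions, which the similar medians do not show. Root markers had negative medians on both sides, -0.66 with and -0.82 without. Flavonoid genes had 13 of 15 past the interaction threshold, with medians of -0.34 with and 1.32 without *bri1-5*. Photosynthesis genes had 9 of 20 past it (45%), with medians of -0.05 with and -0.53 without *bri1-5*.

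**Figure D5:**
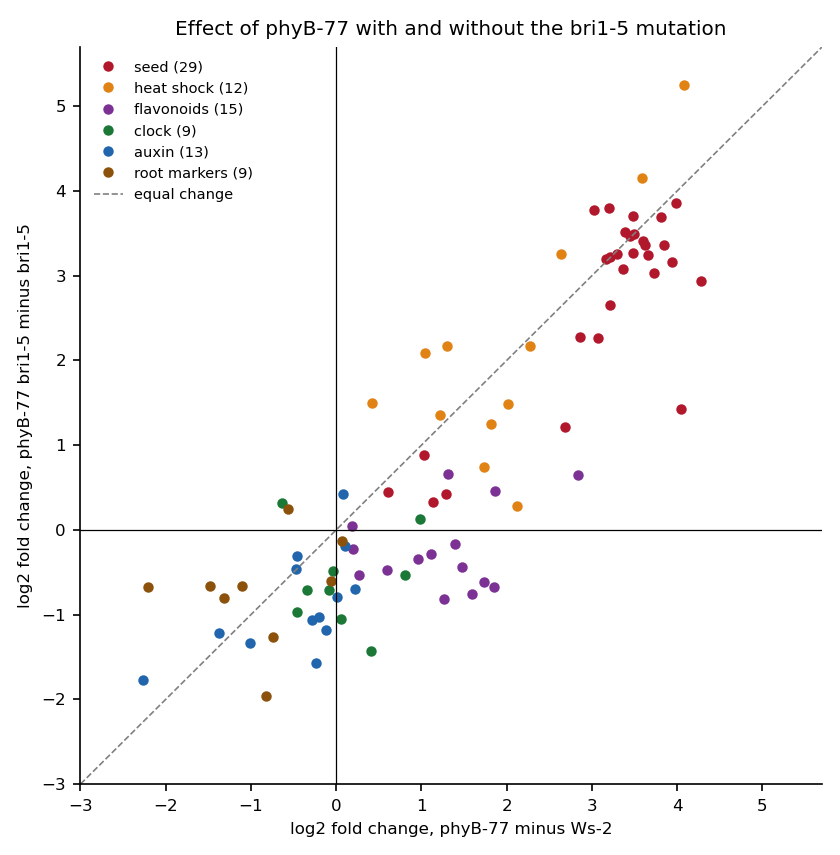
Each point is a gene, coloured by its list, with the log2 effect of *phyB-77* without *bri1-5* (*phyB-77* minus Ws-2) on the x axis and with it (*phyB-77 bri1-5* minus *bri1-5*) on the y axis, and the dashed line marks equal effects. Seed genes lie at the upper right (medians 3.22 with and 3.38 without *bri1-5*), flavonoid genes below the line (medians -0.34 and 1.32), and most clock and auxin genes below it near the middle of the x axis.

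Ws-2 served as a common point to place both genotypes. These contrasts use the same *phyB-77 bri1-5* and *bri1-5* arrays as the main comparison and are given side by side only. *phyB-77 bri1-5* differed from Ws-2 at 3311 probe sets (14.6%) and *bri1-5* from Ws-2 at 4352 (19.1%). Against Ws-2, the median of the 13 auxin genes was -0.23 in *phyB-77 bri1-5* and 0.79 in *bri1-5*, and that of the root markers -0.08 and 0.67. The other cell wall genes stood at -0.21 in *phyB-77 bri1-5* and -0.80 in *bri1-5*, and the BR synthesis genes at 0.78 and 0.99. Glucosinolate genes stood farther from Ws-2 in *phyB-77 bri1-5*, at -1.05 against -0.57 in *bri1-5*. Seed genes were at 3.05 in *phyB-77 bri1-5* and -0.11 in *bri1-5*.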

How the data were processed

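Total RNA of whole seedlings was hybridised to ATH1 arrays, and the authors deposited RMA values, background-corrected, quantile-normalised and summarised on the log2 scale (RMA per the submitters' processing notes, software and version not given in the sources used here). Quantile normalisation assumes similar distributions in all arrays, and array medians lay between 5.87 and 5.99. The precision is limited by the 3 arrays of each genotype. Nothing was renormalised. limma 3.58.1 (R 4.3.3) was fitted with 1 coefficient per genotype to all 12 arrays and 22746 probe sets, with eBayes and Benjamini-Hochberg adjustment. Its residual degrees of freedom were 8 and the median SE was 0.10. Probe sets with several genes (503) or none (7431) were tested but not named, and 18 names that conflicted between sources followed the annotation. For a gene with several probe sets the brightest on average was taken. Gene symbols came from RefSeq. Named were the 15 largest rises and 15 largest falls without overlap, genes the study names and members of gene lists. Members and lists were chosen with earlier results of these data known. Alternatives covered scaling, dim probe sets, thresholds, variance models, left-out arrays and a replicate block. Array numbers were not used to pair the samples in the main fit.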

Additional observations from a re-analysis of the deposited data

Results flagged for a closer look

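The effect of *phyB-77* differed with and without the *bri1-5* mutation at 3128 probe sets, by the limma interaction test at an adjusted p under 0.01. Of 182 genes named in the text 107 were among them. Probe sets named through the tables of the study, which were selected on comparisons that include these arrays, passed the test at 54.1% (703 of 1299), and those named by the annotation at 12.5%. The values below are log2 interactions, the difference *phyB-77 bri1-5* minus *bri1-5* less the difference *phyB-77* minus Ws-2. A negative value thus means a smaller rise or a larger fall with *bri1-5* than without it, or a fall in place of a rise. A positive value means the reverse. Of the 107 genes 69 had a negative and 38 a positive value, and no cause was tested.

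Among BR and growth genes the interaction was -1.73 at *CYP85A2*, -0.78 at *CYP90D1*, -0.66 at *CPD*, -0.75 at *BEE2*, 0.94 at *AIF1* and 0.66 at *PRE3*. *CYP85A2* had opposite effects, -0.88 with *bri1-5* and 0.85 without it. Light and shade genes gave -1.58 at *PIF1*, -1.17 at *HYH*, -0.995 at *PIF5*, -0.62 at *HY5*, -0.90 at *HAT2*, -0.79 at *HAT1*, -0.73 at *ATHB2* and -1.26 at *YUC9*. Auxin genes gave -1.33 at *IAA2*, -1.06 at *IAA1*, -0.83 at *IAA4*, -0.78 at *GH3.6* and -0.80 at *PIN3*. *IAA2* had an effect of -1.57 with *bri1-5* and of -0.23 without it.

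Among cell wall genes the interaction was 0.97 at *PRP2*, 0.64 at *FLA13*, 0.58 at *CESA4*, 0.71 at *CESA7*, 0.86 at *PRP1*, 1.53 at *PRP3* and 1.40 at *PME61*. XTH genes gave 1.24 at *XTH6*, 1.03 at *XTH12*, 0.86 at *XTH13*, 0.93 at *XTH14*, 1.03 at *XTH17* and -1.20 at *XTH15*. *XTH12* had an effect of -0.80 with *bri1-5* and of -1.83 without it, and *PRP3* of -0.68 and -2.21. Expansin genes gave 0.59 at *EXPA3*, 0.97 at *EXPA5*, 0.82 at *EXPA18* and 0.81 at *EXLB1*, and peroxidase genes 1.14 at *PRX2* and 0.69 at *At3g21770*. Root genes gave -0.53 at *RHD2*, -1.14 at *IRT1* and 0.81 at *CASP1*.

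Hormone genes gave -1.73 at *GA3OX1*, -0.53 at *GA2OX2*, -1.10 at *ACS11*, 0.67 at *ACS6*, -2.18 at *ARR8*, -0.55 at *ARR9* and 1.63 at *PSK2*. Clock genes gave -1.84 at *CCA1*, -1.11 at *LHY*, -1.34 at *ELF3*, -0.63 at *LNK2*, -0.86 at *GI* and 0.96 at *FKF1*. *CCA1* had opposite effects, -1.43 with *bri1-5* and 0.41 without it. Ribosome biogenesis and cell division genes gave -1.83 at *At4g25730*, -1.59 at *At3g05060*, -1.39 at *NOP56*, -1.60 at *NAP57*, -0.81 at *CYCD2;1* and 0.52 at *CDKB2;1*. The growth-regulating factor gene *GRF6* gave -0.86.

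Seed genes gave 0.76 at *TIP3;2*, -0.81 at *SESA4* and -0.87 at *ABI3*, and heat shock genes 1.17 at *HSP17.6A*, 0.87 at *HSFA2*, -0.56 at *HSP101* and -1.85 at *HSP70*. *TIP3;2* had the only positive value among the 9 seed genes that passed, and the lowest value among them was -2.62. Genes of plastids and light gave -1.36 at *PORA*, -2.20 at *ELIP1*, -2.79 at *ELIP2*, -0.53 at *PRK*, -0.90 at *accD* and -0.60 at *psbB*. Among the 9 photosynthesis genes that passed, *PRK* alone had a negative value. *ELIP2* rose by 2.05 with *bri1-5* and by 4.84 without it. Flavonoid genes gave -2.35 at *F3H*, -2.52 at *TT19*, -2.08 at *DFR*, -1.41 at *CHS*, -2.18 at *PAP1* and -0.66 at *MYB111*. *F3H* and *TT19* had opposite effects, -0.76 and -0.67 with *bri1-5* and 1.59 and 1.85 without it.

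Defence and abscisic acid genes gave -1.34 at *MAM3*, 0.81 at *BCAT4*, 0.64 at *MYB28*, 1.94 at *ESM1*, -1.71 at *ERD10*, -1.34 at *RD29B* and -0.94 at *COR47*. Genes with the largest falls gave -4.64 at *At4g15620*, -1.79 at *scpl31*, -1.61 at *KT2/3*, -1.18 at *At1g47400*, -1.06 at *At1g06830*, -0.92 at *CIPK20*, -0.81 at *MAC3B* and -0.79 at *At2g40480*. Iron genes gave -1.59 at *bHLH101*, -1.42 at *bHLH39*, -1.34 at *FRO6*, -1.05 at *ORG1* and -1.02 at *BTS*. Rapid stress genes gave 2.13 at *CBF1*, 1.45 at *ZAT12* and 1.32 at *ERF104*, the neighbouring loci 2.73 at *At4g27652*, 2.65 at *At4g27654* and 2.69 at *At4g27657*, and *At1g19530* gave 0.86.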

How the results depend on the processing

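Of the 210 genes with a value in any setting 174 were called, and 170 of them stayed called under every alternative that tested them; *COR47*, *HYH*, *psaA* and *psbD* lost the call under at least 1, and no called gene changed sign. Of the genes not called, 11 passed under at least 1 alternative, among them *HY5* (1 of 15) and *GRF1* (6 of 15). At an adjusted p under 0.05 the count was 6625 in all and 4008 lower, with 5140 interactions. With a fold change above 1.5 as well it was 2168 in all, 933 higher and 1235 lower. These settings change the threshold itself. With arrays centred on their medians the split was 2140 higher and 2185 lower, and with a quantile normalization of the deposited values 2011 and 2332, against 1767 and 2647. The replicate number as a block left 4259 calls, 1719 higher and 2540 lower, and 2981 interactions. Deviations of same-numbered arrays correlated at -0.10, -0.05 and -0.0066, so no shared deviation was seen. These values cannot show whether same-numbered samples were grown or processed together. With only the 6 arrays of *phyB-77 bri1-5* and *bri1-5* the calls numbered 3665, 1476 higher and 2189 lower. Leaving out 1 array gave 3130 to 4184 calls, 1281 to 1650 higher, 1842 to 2534 lower and 2305 to 3314 interactions. The count of shade avoidance genes that were lower was 3 in place of 5 without the 40% dimmest probe sets, which left out 29 named genes, and for ethylene and cytokinin genes it was 1 in place of 2, by the same construction. Higher light signalling genes numbered 0 to 2 over the alternatives. Fold changes of these 29 genes, with signals such as those of *YUC9*, *ARR8* and *HSFA2*, are less certain in size. A search of promoter motifs was not run.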

Other observations

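The genes of the paragraphs below were chosen after their values were seen, so their counts carry no independent support. Iron genes were mostly lower in *phyB-77 bri1-5*. Of 28 genes of iron uptake, storage and regulation 18 were measured, 11 of them lower (61.1%) and 5 higher (27.8%), with a median of -0.95. *bHLH39*, a factor that switches on iron uptake, had 6.57, 6.70 and 6.85 in *phyB-77 bri1-5* against 8.31, 8.07 and 8.18 in *bri1-5*, a 2.79-fold lower signal (adjusted p = 2.1e-09). Its relative *bHLH101* fell by 1.57, the transporter gene *IRT2* by 1.58, and *BTS*, a ubiquitin ligase that restrains the iron response, by 1.31. *bHLH39* in *phyB-77 bri1-5* differed from Ws-2 by -0.01 (95% interval -0.22 to 0.19), whereas *bri1-5* was above Ws-2 by 1.46. The genes that rose included the iron stores. *FER1*, for a plastid ferritin, had 10.12, 10.21 and 10.12 in *phyB-77 bri1-5* against 8.38, 8.38 and 8.88 in *bri1-5* (3.04-fold, adjusted p = 1.9e-08), and the seed ferritin gene *FER2* was 3.99-fold higher. *MYB10*, a factor that iron shortage induces, also rose, by 1.87.

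Rapidly induced stress genes were higher, 11 of 13 measured of 20 listed (84.6%), none lower, with a median of 0.91. *ZAT12*, a zinc finger gene that many stresses induce, had 8.80, 8.94 and 9.02 in *phyB-77 bri1-5* against 7.23, 7.18 and 7.37 in *bri1-5* (3.16-fold, adjusted p = 7.9e-11). *CBF1*, a cold response factor, had 6.48, 6.56 and 6.57 in *phyB-77 bri1-5* against 4.65, 4.91 and 4.94 in *bri1-5* (3.26-fold, adjusted p = 1.2e-09). *ERF104* had 7.45, 7.48 and 7.37 in *phyB-77 bri1-5* against 5.61, 5.79 and 5.89 in *bri1-5*. Without *bri1-5* the effect of *phyB-77* was 0.21 at *ZAT12*, -0.42 at *CBF1* and 0.35 at *ERF104*, and all 3 passed the interaction test. The neighbouring loci *At4g27652*, *At4g27654* and *At4g27657* were likewise highest in *phyB-77 bri1-5*. *At4g27652* had 8.89, 9.07 and 9.02 in *phyB-77 bri1-5* against 6.14, 6.01 and 6.68 in *bri1-5*, 6.21 ± 0.11 in *phyB-77* and 6.22 ± 0.03 in Ws-2 (SD, n = 3). The rises at the 3 loci were 2.72, 2.48 and 2.77.

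The growth-regulating factor genes *GRF7* and *GRF8* rose by 2.22 and 2.19, and *GRF1* and *GRF6* differed by 0.49 and 0.18 and were not called. *PSK2*, for a growth-promoting peptide, had 6.92, 7.06 and 7.09 in *phyB-77 bri1-5* against 4.84, 4.40 and 5.39 in *bri1-5* (4.42-fold, adjusted p = 8.6e-09). *PSK2* in *phyB-77 bri1-5* differed from Ws-2 by 0.31 (95% interval -0.03 to 0.64). *PME61*, a pectin methylesterase gene, had 5.97, 6.13 and 6.13 in *phyB-77 bri1-5* against 4.51, 4.09 and 4.25 in *bri1-5* (3.46-fold, adjusted p = 5e-10), and *At1g19530* was 6.82-fold higher.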
